A study of Mus musculus with 8 samples.

Results

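Called adenines that lay within 10 bases of another called adenine of the same list, on either strand, are described here as tightly clustered sites. They numbered 1112 among 15823 sites outside 4 excluded regions, and 17418 sites in all. The regions left out were the contig JH584304, chromosome 9 from 3.0 to 3.1 Mb, chromosome 14 from 19.4 to 19.5 Mb and chromosome 2 from 98.6 to 98.7 Mb. Positions alone chose the members, so their closeness is a description and not a finding. By list, 143 of 2691 sites were members in Alkbh1 KO L, 201 of 3501 in WT L, 172 of 3025 in Alkbh1 KO S and 596 of 6606 in WT S.

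The DNA came from native chromatin of TT2 ES cells, a mouse embryonic stem cell line of C57BL6 x CBA background, precipitated with a customized antibody to the histone variant H2A.X. Cells with a knockout (KO) of Alkbh1 were set against wild-type (WT) cells, and both were grown without feeder cells to passage 5 to 10. The long (L) and short (S) parts of the DNA were sequenced separately, as 8 samples, 2 per genotype and part. Each of the 4 groups has 1 list in which its 2 replicates are joined, so no difference between genotypes has a replicate error and none was tested. The labels do not say whether the KO cells were a single clone or which part of Alkbh1 was deleted. Alkbh1 itself (chromosome 12, 87428077 to 87443839) held 0 called sites in the 4 lists, which does not check the genotype because the lists hold called bases alone.

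Single-molecule real-time (SMRT) sequencing times the polymerase at each base, and the inter-pulse duration (IPD) ratio compares that time with the time predicted for unmodified DNA. N6-methyladenine slows the polymerase, and polymerase kinetics also depend on the bases around the position. In bacteria this base is placed by methyltransferases that read short motifs such as GATC, usually on both strands. Its amount in mammalian DNA has been debated, and ALKBH1 is a dioxygenase of the AlkB family that has been described as a demethylase of this base.

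The sequences of 9 clusters are shown because they hold the kinds of cluster that the results turn on, which are lone adenines in a TA repeat, long runs of adenines, calls of unequal strength, calls on both strands, and bases called again in another list. Each is the mm10 plus strand read 5′ to 3′ from the contexts deposited with the calls, with 20 bases on each side of the outermost sites. A capital A marks an adenine called on the plus strand, and a capital T marks an adenine called on the minus strand.
WT S, Arntl (chr7:113209229-113209283, plus strand): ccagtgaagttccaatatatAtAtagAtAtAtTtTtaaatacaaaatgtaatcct
KO L, Mtcl1 (chr17:66349655-66349710, plus strand): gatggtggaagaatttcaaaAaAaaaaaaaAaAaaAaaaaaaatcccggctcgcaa
WT S, outside genes (chr8:12495734-12495793, plus strand): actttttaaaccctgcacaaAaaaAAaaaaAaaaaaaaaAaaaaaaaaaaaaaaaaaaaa
KO L, outside genes (chr7:37801593-37801637, plus strand): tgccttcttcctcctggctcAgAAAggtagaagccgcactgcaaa
WT L, outside genes (chr9:81683171-81683220, plus strand): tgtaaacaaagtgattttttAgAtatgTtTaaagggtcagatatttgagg
KO S, outside genes (chr15:3882704-3882747, plus strand): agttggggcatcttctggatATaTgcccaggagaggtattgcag
KO L, outside genes (chr15:75085618-75085677, plus strand): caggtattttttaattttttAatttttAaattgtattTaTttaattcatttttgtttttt
KO L, WT L and KO S, Gm33838 (chr9:35305272-35305317, plus strand): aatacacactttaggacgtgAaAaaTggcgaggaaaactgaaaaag
All 4 lists, Gm33838 (chr9:35305216-35305260, plus strand): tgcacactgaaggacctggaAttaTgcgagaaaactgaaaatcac

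The share of sites that were tightly clustered was 5.31% in KO L (95% exact Clopper-Pearson interval 4.50 to 6.23) and 5.74% in WT L (4.99 to 6.56). It was 5.69% in KO S (4.89 to 6.57) and 9.02% in WT S (8.34 to 9.74). The 2 intervals of the long part overlap, and those of the short part do not, but the intervals cover counting error alone and treat sites as independent. WT S also had the most sites and the deepest coverage of the 4 lists, with a median coverage of 13 at its sites outside clusters, against 11 in KO S, 9 in KO L and 10 in WT L. The genotype and the depth of these lists cannot be told apart. With clusters formed anew from calls with a score of 30 or more, the share was 4.91% in KO S (3.26 to 7.06) and 5.97% in WT S (4.82 to 7.31), and the intervals overlap. Only 27 clustered sites of KO S and 88 of WT S were left at that score.

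Depth moved with the share in every list. Among sites at coverage 6 to 10, 2.42% were clustered in KO L, 2.49% in WT L, 2.49% in KO S and 2.85% in WT S. At coverage 11 to 14 the shares were 6.26% in KO L, 5.02% in WT L, 5.97% in KO S and 7.57% in WT S. At coverage 15 to 24 they were 8.25%, 12.8%, 8.33% and 11.2% in the same order, and at 25 to 99 they were 21.2%, 18.6%, 16.5% and 21.6%. Within each of these classes WT S had a higher share than KO S, with overlapping intervals. For all calls at coverage of 11 or more, clusters were formed anew from these calls alone, unlike in the classes above. The intervals then did not overlap, with 8.17% in KO S (6.87 to 9.63) and 11.7% in WT S (10.8 to 12.7). The median coverage of the other sites was then 15 in KO S and 17 in WT S. At coverage of 100 or more few sites were left, and 7 of 8 were clustered in KO L, 7 of 11 in WT L, 7 of 14 in KO S and 10 of 19 in WT S.

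**Figure D1:**
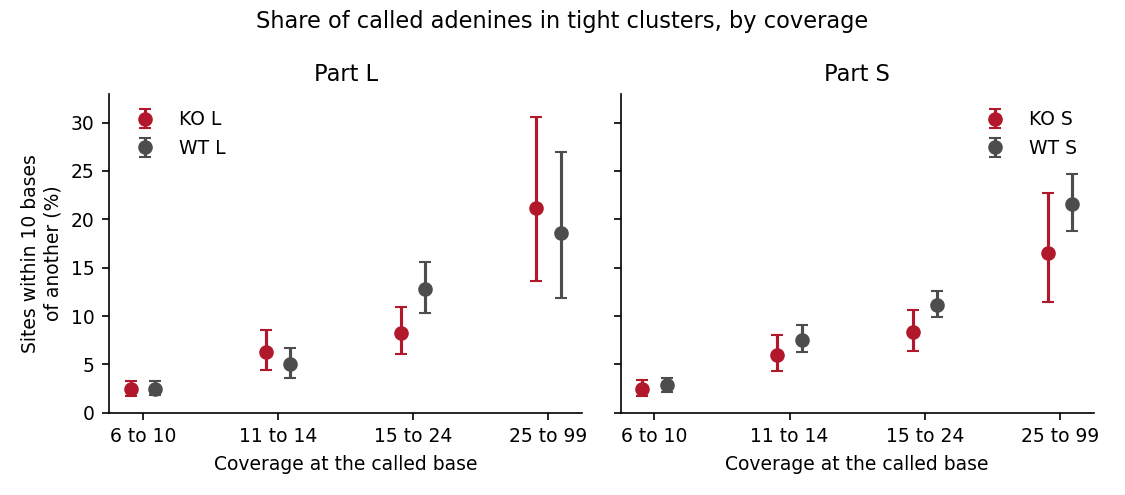
Share of called adenines that lay within 10 bases of another, by coverage at the called base, in the long part (left) and the short part (right). Points are the share in each list and bars its 95% exact interval; the shares lie between 2.42% and 2.85% at coverage 6 to 10 and between 16.5% and 21.6% at coverage 25 to 99.

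Chaining sites with gaps of at most 10 bases gave 509 clusters, 63 in KO L, 93 in WT L, 81 in KO S and 272 in WT S. Of these, 441 were pairs, 50 held 3 sites, 12 held 4, 5 held 5 and 1 held 7. Clusters of 3 or more sites made up 15.9% of the clusters in KO L, 11.8% in WT L, 11.1% in KO S and 14% in WT S. The median span from first to last site was 6 bases in KO L, WT L and KO S and 5 in WT S, and the longest was 22 bases. Clusters with calls on both strands made up 30.2% in KO L, 26.9% in WT L, 30.9% in KO S and 25% in WT S.

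Most neighbours within a cluster lay on the same strand. Opposite strands were found in 20 of 80 successive pairs in KO L (25%, interval 16 to 35.9) and 25 of 108 in WT L (23.1%, 15.6 to 32.2). In the short part they were found in 26 of 91 pairs in KO S (28.6%, 19.6 to 39.0) and 70 of 324 in WT S (21.6%, 17.2 to 26.5). Over the 4 lists, same-strand pairs were 2 bases apart in 129 of 462 cases, 1 base apart in 69 and 4 bases apart in 63, and no other distance had more than 35. A distance of 2 was the commonest same-strand distance in KO L (17 pairs), WT L (25) and WT S (73), whereas KO S had 15 pairs at a distance of 4 and 14 at a distance of 2. Opposite-strand pairs, 141 in all, showed no such peak, with 8 to 20 pairs at each distance of 1 to 10 bases.

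The number of adenines at hand differs between distances, so calls were also counted per adenine of the deposited contexts. A pair of called adenines entered these counts from each of its members. On the same strand, 1.91% of the adenines 2 bases from a called site were themselves called in KO L, 2.09% in WT L, 1.46% in KO S and 3.26% in WT S. The adjacent adenine was called less often, at 0.708% in KO L, 1.03% in WT L, 0.489% in KO S and 2.37% in WT S. At 6 to 10 bases the share was 0.474% in KO L, 0.473% in WT L, 0.558% in KO S and 0.884% in WT S, and at 11 to 20 bases it was 0.423%, 0.330%, 0.305% and 0.524% in the same order. Adenines of the opposite strand within 10 bases were called at 0.325% in KO L, 0.329% in WT L, 0.414% in KO S and 0.486% in WT S, against 0.259%, 0.188%, 0.231% and 0.299% at 11 to 20 bases.

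The same-strand share at 6 to 10 bases was above that at 11 to 20 bases in each list, by less in KO L than in the others. The sites just inside and just outside the limit are given as a description. At a nearest distance of 9 to 10 bases there were 13 sites in KO L, 17 in WT L, 25 in KO S and 78 in WT S, with a median IPD ratio of 2.73, 2.76, 3.37 and 2.28. At 11 to 12 bases there were 20, 26, 27 and 44 sites in the same order, with a median IPD ratio of 2.19, 2.465, 2.80 and 2.39.

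**Figure D2:**
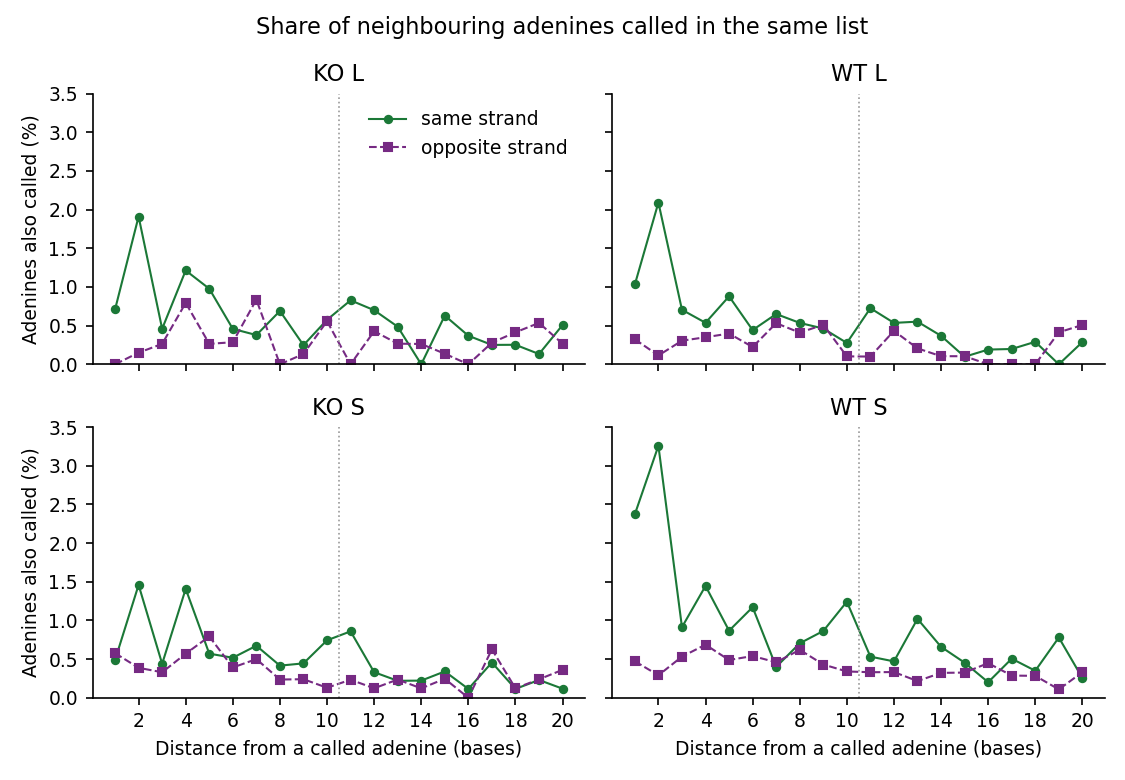
Share of adenines called in the same list, by distance from a called adenine, on the same strand (circles) and on the opposite strand (squares), with the 10-base limit as a dotted line. The same-strand share is highest at 2 bases in each list, from 1.46% in KO S to 3.26% in WT S. In KO S the share at 4 bases is close to it, at 1.41%. The opposite-strand share has no peak at 2 bases.

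Runs of adenines held many of the clusters. A run of 6 or more A contained 18.2% of clustered sites in KO L, 21.9% in WT L, 12.2% in KO S and 18.8% in WT S, against 3.92%, 4.85%, 2.35% and 3.83% of the other sites. Of the adenines within 10 bases of clusters that were not called, the share in such runs was 24% in KO L, 27.5% in WT L, 14.3% in KO S and 27.2% in WT S. Around the other sites the uncalled adenines were also in such runs more often than the sites themselves, with 7.75% in KO L, 8.65% in WT L, 4.97% in KO S and 7.48% in WT S. A long run brings many uncalled adenines into such a count, so called and uncalled adenines are given side by side without a comparison. Read the other way, 20.6% of the sites in long runs were clustered in KO L, 21.6% in WT L, 23.9% in KO S and 32.7% in WT S, against 4.56%, 4.76%, 5.14% and 7.73% of the sites in runs of 5 or fewer. A site in a long run has more adenines within 10 bases that can be called. The rule therefore favours long runs in both comparisons of clustered with other sites, and by how much was not tested.

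Same-strand pairs that shared an unbroken run of A made up 36.7% of same-strand pairs in KO L, 43.4% in WT L, 23.1% in KO S and 42.1% in WT S. At a distance of 2 bases, an adenine joined to the called site by an unbroken run was called in 3.60% of cases in KO L, 3.01% in WT L, 2.24% in KO S and 4.05% in WT S. With another base in between, the share was 0.985% in KO L, 1.57% in WT L, 1.08% in KO S and 2.80% in WT S. The intervals with and without another base overlap in WT L, KO S and WT S, but not in KO L. Across other bases, an adenine 4 bases away was called in 1.13% of cases in KO L, 0.346% in WT L, 1.41% in KO S and 1.30% in WT S. Outside runs the share at 2 bases was thus above that at 4 bases in WT L and WT S, and below it in KO L and KO S, where the intervals of the 2 shares overlap. Each called pair is counted from both of its members, so all intervals of these shares are too narrow. No separation of the shares in WT L or WT S is drawn from them.

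Other features of the sequence differed as well. The flanking 20 bases on each side were richer in A and T at clustered sites, with a median AT content of 65% in KO L, 65% in WT L, 62.5% in KO S and 65% in WT S. At other sites it was 57.5%, 57.5%, 55% and 57.5% in the same order. The difference was also seen at sites in runs of 5 or fewer A. There the medians were 60%, 60%, 60% and 62.5% at clustered sites, against 55%, 57.5%, 55% and 57.5% at other sites. The rule places another A or T within 10 bases of every clustered site. It thus sets part of the difference in AT content, and how large a part was not tested. The triplet AAA held 30.1% of clustered sites in KO L, 30.8% in WT L, 22.1% in KO S and 30.2% in WT S, against 11.1%, 10.6%, 8.94% and 9.98% of other sites. The uncalled adenines within 10 bases of clustered sites were in AAA at 32.2% in KO L, 36.1% in WT L, 25% in KO S and 34.3% in WT S. The triplet CAT held 4.20%, 1.99%, 5.23% and 4.53% of clustered sites against 9.03%, 11.4%, 10.2% and 11.6% of other sites, in the same order of lists, and 3.49%, 3.47%, 5.22% and 3.31% of the uncalled adenines near clusters. Around the other sites the uncalled adenines were in AAA at 17.7% in KO L, 18.7% in WT L, 15.3% in KO S and 17.5% in WT S. They were in CAT at 5.09%, 4.71%, 5.21% and 4.95% in the same order. Long runs also weigh on these counts, so called and uncalled adenines are again given without a comparison. A site in AAA has an adenine on either side, so the rule also favours AAA among clustered sites. Lone adenines, with no A on either side, still made up 32.2% of clustered sites in KO L, 29.4% in WT L, 42.4% in KO S and 32.2% in WT S, against 50.1%, 52.1%, 56.4% and 52.4% of other sites. A CpG lay within the context of 26.6%, 24.4%, 30.2% and 27.5% of clustered sites, against 29.1%, 27.2%, 31.8% and 29.1% of other sites, and these intervals overlap in each list.

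**Figure D3:**
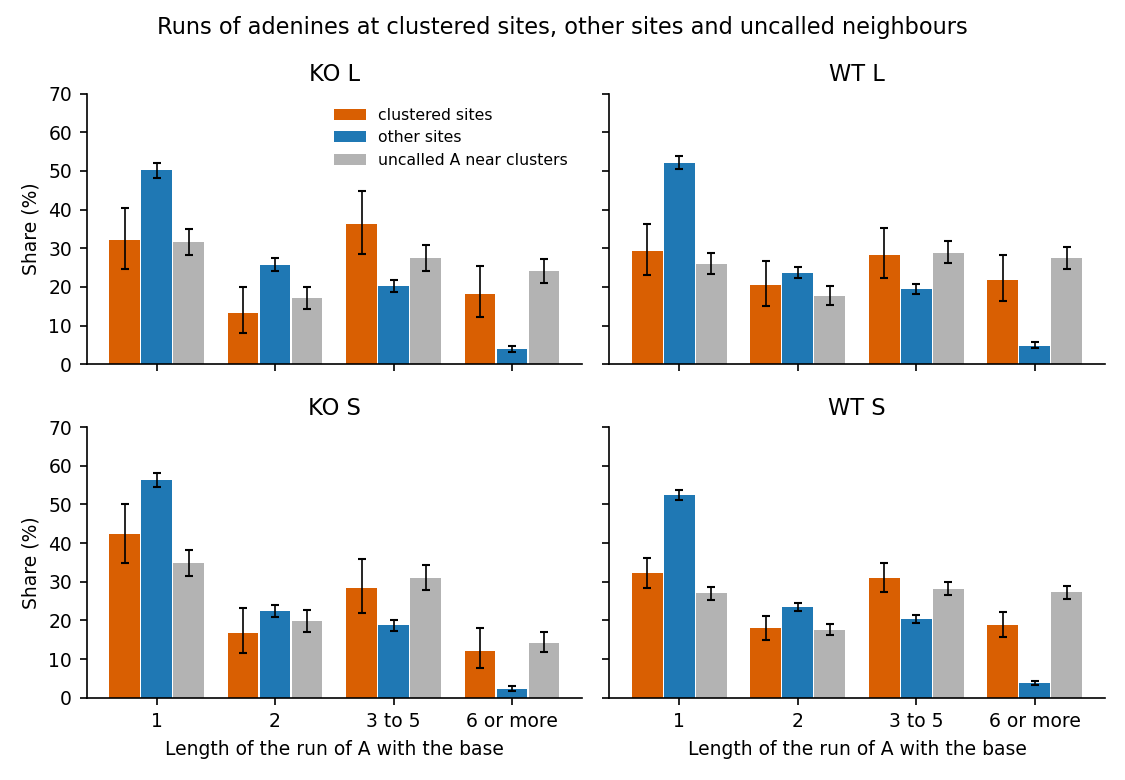
Share of clustered sites, of other sites and of uncalled adenines within 10 bases of clustered sites, by the length in bases of the unbroken run of A that holds the base. Bars show the share in each list with its 95% exact interval; runs of 6 or more A hold 12.2% to 21.9% of clustered sites, 2.35% to 4.85% of other sites and 14.3% to 27.5% of the uncalled neighbours.

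Calls on both strands of a short palindrome were counted next. GATC, the motif of the bacterial Dam methyltransferase, held 13 sites in KO L, 32 in WT L, 19 in KO S and 45 in WT S, and 0 of these motifs were called on both strands in any list. AT steps held 688 sites in KO L, 1072 in WT L, 812 in KO S and 2010 in WT S, of which both strands were called at 0, 0, 2 and 6 steps. TA steps held 587 sites in KO L, 785 in WT L, 574 in KO S and 1376 in WT S, of which both strands were called at 0, 3, 2 and 2 steps. Per adenine, the partner across an AT step was called for 0% of sites in KO L and WT L, 0.493% in KO S and 0.597% in WT S, where opposite-strand adenines at 11 to 20 bases were called at 0.259%, 0.188%, 0.231% and 0.299%. These counts are too small to order the lists. In the KO S cluster at chr15:3882724-3882727, whose sequence holds the AT step, the plus strand call had an IPD ratio of 7.95 at coverage 13 and the minus strand call 3.47 at coverage 19. Another call of that cluster, 2 bases further on the minus strand, had an IPD ratio of 2.66 at coverage 20.

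The signal of clustered sites differed from that of other sites by less in IPD ratio than in coverage and modified fraction. The median IPD ratio was 2.72 at clustered and 2.67 at other sites in KO L, 2.58 and 2.66 in WT L, 2.805 and 2.75 in KO S, and 2.56 and 2.64 in WT S. With no region excluded, the clustered sites had the lower median in each list, with 2.23 and 2.60 in KO L, 2.33 and 2.59 in WT L, 2.46 and 2.67 in KO S, and 2.31 and 2.59 in WT S. Median coverage was 14 at clustered and 9 at other sites in KO L, 15 and 10 in WT L, 16.5 and 11 in KO S, and 19 and 13 in WT S. The modified fraction, the authors' estimate of the share of molecules that carry the modification, is given at coverage of 11 or more only. Its median was 60.6% at clustered and 72.3% at other sites in KO L, 65.6% and 74.7% in WT L, 71.15% and 79.6% in KO S, and 59.4% and 74.3% in WT S.

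The IPD ratio of called sites was lower where coverage was higher, so the medians were also compared within coverage classes. At coverage 6 to 10 the median IPD ratio was 3.11 at clustered and 2.84 at other sites in KO L, 3.06 and 2.82 in WT L, 3.415 and 2.96 in KO S, and 3.39 and 3.08 in WT S. At 15 to 24 it was 2.56 and 2.40 in KO L, 2.465 and 2.36 in WT L, 2.61 and 2.44 in KO S, and 2.49 and 2.41 in WT S. Clustered sites had the higher median in each list at coverage 6 to 10, 11 to 14 and 15 to 24, although the quartiles overlap widely. At 25 to 99 they had the higher median in KO L, WT L and WT S, and the lower in KO S, at 1.985 against 2.11. The gap in modified fraction varied between coverage classes. At coverage 11 to 14 the medians were 72.9% at clustered and 82.5% at other sites in KO L, 78.35% and 84.1% in WT L, 84.1% and 90.7% in KO S, and 88.05% and 87.1% in WT S. At 15 to 24 they were 57.2% and 62.8% in KO L, 67.0% and 66.0% in WT L, 72% and 71.75% in KO S, and 63.8% and 71.1% in WT S. At 25 to 99 they were 53.2% and 46.25% in KO L, 46.9% and 49.6% in WT L, 46.65% and 48.2% in KO S, and 39.0% and 50.05% in WT S, so the direction differed between lists and classes.

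**Figure D4:**
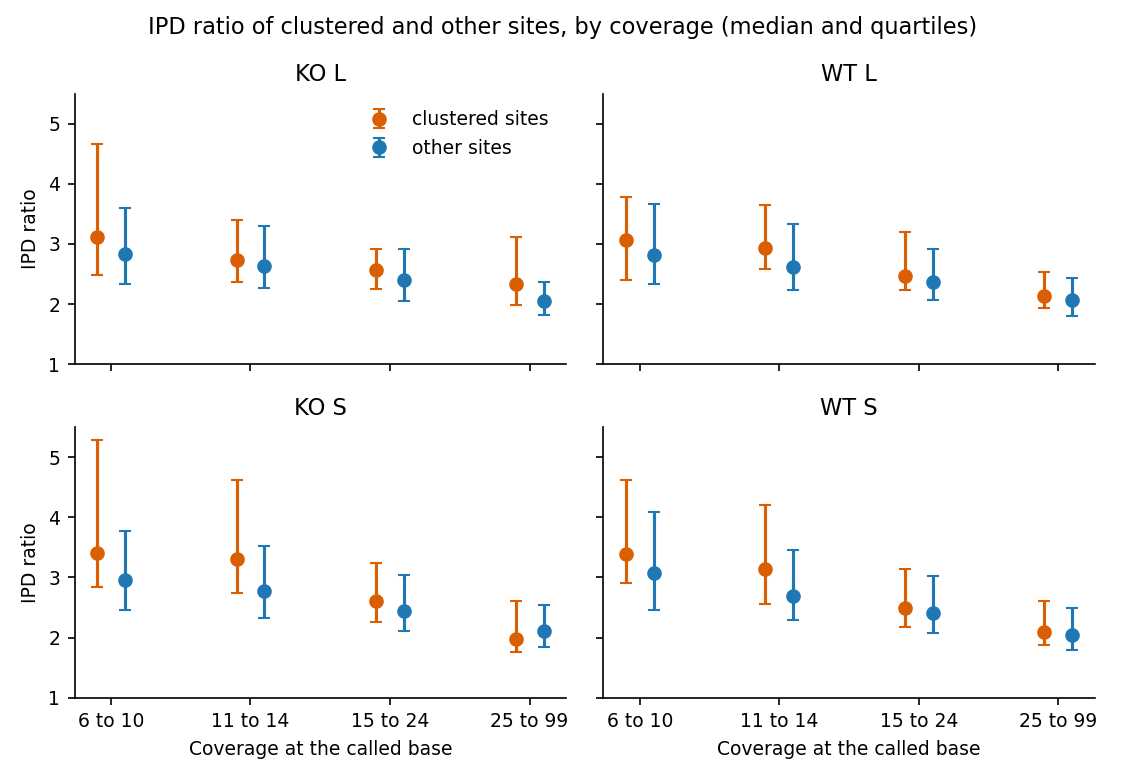
IPD ratio of clustered sites (left of each pair) and other sites, by coverage at the called base, in each list. Points are medians and bars the quartiles; among the classes plotted, clustered sites have the higher median except at coverage 25 to 99 in KO S, where it is 1.985 against 2.11.

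The identification score states how well the kinetics around a call match N6-methyladenine. A score of 20 or more was found at 23.8% of clustered and 7.85% of other sites in KO L, 18.4% and 8.30% in WT L, 26.7% and 10.8% in KO S, and 22% and 12.6% in WT S. Coverage was higher at clustered sites as well, and within coverage classes the difference was not the same everywhere. At coverage 6 to 10 the share was 11.1% of clustered and 5.30% of other sites in KO L, 2.13% and 6.20% in WT L, 8.33% and 6.81% in KO S, and 4.84% and 7.0% in WT S. At 11 to 14 it was 16.7% and 6.86% in KO L, 9.52% and 9.82% in WT L, 14.6% and 10.7% in KO S, and 11.6% and 11.5% in WT S. At 15 to 24 and at 25 to 99 it was higher at clustered sites in each list, in the deeper class with 42.9% and 17.9% in KO L, 38.1% and 16.3% in WT L, 40% and 25% in KO S, and 33.1% and 23% in WT S. Below coverage 15 the clustered shares rest on few sites, with 4 of 36 in KO L, 1 of 47 in WT L, 3 of 36 in KO S and 3 of 62 in WT S at coverage 6 to 10. At 11 to 14 they were 6 of 36, 4 of 42, 6 of 41 and 13 of 112 in the same order. In both classes the intervals of clustered and other sites overlap in each list. At 15 to 24 and 25 to 99 they overlap as well, except in KO S at 15 to 24. Among same-strand pairs both members reached 20 in 9 of 60 in KO L, 7 of 83 in WT L, 6 of 65 in KO S and 19 of 254 in WT S. Clusters of 3 or more sites had the score at 43.2% of their sites in KO L, 37.8% in WT L, 53.6% in KO S and 26.6% in WT S, against 17%, 14%, 21.5% and 20.7% in clusters of 2. In WT S these intervals overlap. Clusters of 3 or more numbered only 10 in KO L, 11 in WT L, 9 in KO S and 38 in WT S. Sites of a cluster are not independent, so the intervals are too narrow in each list. The larger clusters also had the higher median coverage, with 18 against 14 in KO L, 16 against 14.5 in WT L, 21.5 against 16 in KO S and 19.5 against 18 in WT S. Within coverage classes the direction was not the same everywhere.

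Members of a same-strand pair had nearly equal coverage, with a median ratio of the higher to the lower of 1.05 in KO L and 1.06 in WT L, KO S and WT S. Their IPD ratios differed by a median factor of 1.24 in KO L, 1.22 in WT L, 1.21 in KO S and 1.23 in WT S. Modified fractions differed by a median of 16.9 percentage points in KO L, 17.6 in WT L, 19.45 in KO S and 18.1 in WT S. Across same-strand pairs the log2 IPD ratios of the members had a Pearson correlation of 0.43 in KO L (60 pairs), 0.37 in WT L (83), 0.62 in KO S (65) and 0.37 in WT S (254), where the members share molecules, depth and sequence. The higher IPD ratio lay at the 5′ member in 28 and at the 3′ member in 32 pairs in KO L, 38 and 44 in WT L, 32 and 33 in KO S, and 123 and 128 in WT S, so neither side led.

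The largest cluster held 7 sites in 15 bases in WT S, at chr7:113209249-113209263 within Arntl, which encodes the circadian clock transcription factor BMAL1. Its 5 plus strand calls fell on lone adenines of a TA repeat and had IPD ratios of 3.86, 4.39, 2.37, 5.68 and 4.70 at coverage 15 to 16. Its 2 minus strand calls had IPD ratios of 2.15 and 7.64 at coverage 16. Modified fractions there were between 55.7% and 100%, and none of the 7 bases was called in another list.

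Long runs gave clusters of another kind. In Mtcl1, which encodes a microtubule crosslinking factor, 5 plus strand calls of KO L fell within a run of 26 A, with IPD ratios of 2.06, 2.35, 2.92, 3.76 and 2.35 at coverage 8 to 22. In WT S, 5 calls at chr8:12495754-12495773 lay in a run of at least 41 A, as far as the contexts reach, with IPD ratios of 5.47, 5.45, 3.53, 2.89 and 4.53, all at coverage 8. A WT S cluster within Elac2, which encodes an endonuclease that trims the 3′ end of tRNA precursors, had 4 minus strand calls in a run of 17 A, with IPD ratios of 3.85, 3.40, 4.13 and 2.45. Clusters with a site in a run of 6 or more A made up 20.6% of the clusters in KO L, 23.7% in WT L, 16% in KO S and 20.2% in WT S.

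Calls within a cluster could differ widely. In KO L the cluster at chr7:37801613-37801617 had IPD ratios of 12.07, 4.58, 3.14 and 2.69 from 5′ to 3′ at coverage 28 to 33, and modified fractions of 100%, 99.7%, 27.0% and 46.8%. Its identification scores were 53, 57, 10 and 13, so the 2 upstream calls had the higher IPD ratio, fraction and identification score. In WT L the cluster at chr9:81683191-81683200 had 2 plus strand calls with IPD ratios of 5.60 and 2.62 and 2 minus strand calls with 4.18 and 5.85, at coverage 11 to 16. In KO S the cluster at chr4:66775552-66775559 had 2 adjacent plus strand calls with IPD ratios of 2.05 and 2.17 and a modified fraction of 0% at each, beside 2 minus strand calls at 90.3% and 100%.

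Recurrence in another list does not depend on the rule, since each list chose its own members. The same base was called in another list for 7 of 143 clustered sites in KO L, 6 of 201 in WT L, 7 of 172 in KO S and 7 of 596 in WT S. Over all sites outside the excluded regions the share called at the same base in another list was 0.334% in KO L, 0.229% in WT L, 0.43% in KO S and 0.197% in WT S. For clustered sites it was 4.90% in KO L, 2.99% in WT L, 4.07% in KO S and 1.17% in WT S, and for the other sites 0.0785%, 0.0606%, 0.210% and 0.0998%. A site of another list within 10 bases was found for 9 clustered sites in KO L, 8 in WT L, 10 in KO S and 11 in WT S, where 0.446%, 0.371%, 0.562% and 0.257% of all sites had such a neighbour.

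These recurring bases were 11 in number, with 6 in Gm33838, 3 on the unplaced contig GL456392, 1 on chromosome 15 and 1 in Chl1, and most had high coverage. At coverage under 100, the same base was called in another list for 1 of 136 clustered sites in KO L, 0 of 194 in WT L, 1 of 165 in KO S and 1 of 586 in WT S. Contexts that shared sequence with those of the excluded regions (3 or more words of 12 bases, a criterion chosen after seeing the data) held 7.69% of clustered sites in KO L, 3.98% in WT L, 8.14% in KO S and 3.52% in WT S, against 1.49%, 1.18%, 0.841% and 1.10% of other sites. Without them, the same base recurred for 1 of 132 clustered sites in KO L, 0 of 193 in WT L, 0 of 158 in KO S and 0 of 575 in WT S. Among the other sites it recurred for 0 of 2510, 1 of 3261, 0 of 2829 and 0 of 5944 in the same order, so recurrence was rare in both sets. By the upper bound of the exact interval, the counts of 0 at clustered sites allow a share of up to 1.89% in WT L, 2.31% in KO S and 0.639% in WT S.

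The bases that were clustered in all 4 lists lay in Gm33838, a long noncoding RNA gene on chromosome 9 (35285514 to 35307723), in a stretch whose contexts resemble the excluded regions. They were 4 in number. The adenine at position 35305236 on the plus strand had an IPD ratio of 2.07 in KO L, 2.22 in WT L, 2.68 in KO S and 2.52 in WT S, at coverage 147, 140, 308 and 422. Its neighbour at 35305240 on the minus strand had 1.92 in KO L, 2.02 in WT L, 2.67 in KO S and 2.61 in WT S. Both bases were higher in the 2 short lists than in the 2 long lists, whichever the genotype.

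The adenine at 35305292 on the plus strand had an IPD ratio of 2.29 in KO L, 2.31 in WT L, 2.47 in KO S and 2.32 in WT S, at coverage 550, 425, 986 and 1509, and a modified fraction of 61.4%, 63.6%, 66.3% and 64.1%. The adenine 2 bases downstream, at 35305294, had 1.36 in KO L, 1.44 in WT L, 1.61 in KO S and 1.63 in WT S, with fractions of 17.3%, 21.4%, 28.1% and 28.5%. The order within this pair was the same in each list, with the first base well above the second in IPD ratio and fraction. The minus strand adenine at 35305297 had 1.67 in KO L, 1.79 in WT L and 2.18 in KO S and was not listed in WT S. The minus strand adenine at 35305328, at coverage 971 or more, had an IPD ratio of 1.36 in KO L, 1.35 in KO S and 1.32 in WT S. In KO L that value equals the one at 35305294, and in both short lists it is below it.

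**Figure D5:**
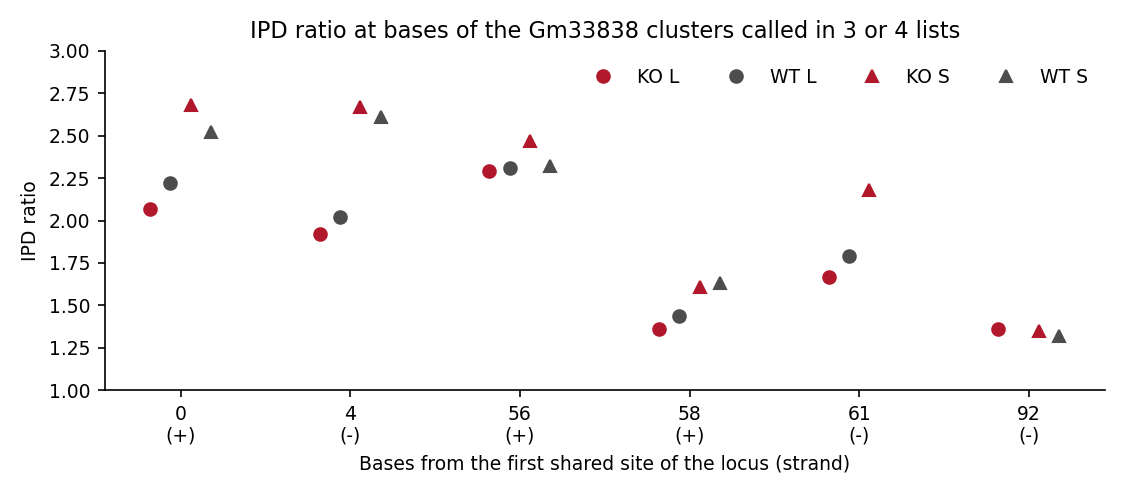
IPD ratio at 6 bases of the Gm33838 clusters that were called in 3 or 4 lists, by distance in bases from the first, with the strand in brackets (KO in red, WT in grey; circles for the long part, triangles for the short part). Each point is a single value from a list, without replicates; KO and WT of a part lie close together at most bases, as at the first base with 2.07 and 2.22 in KO L and WT L.

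Outside this locus, the adenine at position 75085638 on the plus strand of chromosome 15 had an IPD ratio of 3.19 at coverage 33 in KO L and 2.65 at coverage 30 in WT L. It was part of a 4-site cluster in KO L alone. In Chl1, which encodes a neural cell adhesion molecule, the plus strand adenine at 103649294 of chromosome 6 was called in the 4 lists, with an IPD ratio of 2.43 in KO L, 2.39 in WT L, 2.75 in KO S and 2.39 in WT S. It was clustered in WT L alone, beside a minus strand call with an IPD ratio of 1.56. On the contig GL456392, 3 bases of clusters were called in 2 or 3 lists, with IPD ratios between 1.43 and 3.42.

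Clustered sites lay in 248 genes, of which 189 were protein coding, 15 held 2 or more clusters and 6 held clustered sites in 2 or more lists. Gm33838 had the most, with 21 over the 4 lists. Arntl had 7 in WT S, Mtcl1 had 7 in KO L in 2 clusters, and Olfr1364, an odorant receptor gene, had 5 in WT S in 2 clusters. The other 5 genes with members in 2 or more lists were Auts2, Dtnb, Ptprd, Snhg14 and Zfp978, each with 4 sites in 2 clusters.

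Lying in a gene was about as common for clustered as for other sites. The share on placed chromosomes was 40.6% of clustered and 51.4% of other sites in KO L, 56.8% and 52.7% in WT L, 48.5% and 51.1% in KO S, and 53.0% and 52.3% in WT S. The intervals overlap in WT L, KO S and WT S but not in KO L, where they are 32.4 to 49.1 and 49.5 to 53.4. They treat sites as independent, although sites of a cluster lie together, so they are too narrow for clustered sites. By cluster, 26 of 63 lay in a gene in KO L, 53 of 93 in WT L, 39 of 81 in KO S and 142 of 272 in WT S. Promoter windows, from 250 bases before to 50 after a gene start in the RefSeq table, held 0 clustered sites in each list, against 15 of 2541 other sites in KO L, 9 of 3294 in WT L, 11 of 2836 in KO S and 22 of 5990 in WT S. The upper bounds for the clustered sites were 2.55% in KO L, 1.84% in WT L, 2.18% in KO S and 0.626% in WT S, so these counts of 0 do not show a lower share. These bounds too count sites and not clusters, and are too low for that reason.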

How the data were processed

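For every genotype and DNA part the authors deposited a single list of called adenines that joins both replicates. Positions are on mm10, according to the submitters' processing notes. The caller, the aligner and their filters were not named in the sources used here. A line of a list gives the deposited score of the call (20 the lowest), the coverage as a deposited signal without normalization, and the IPD as a deposited ratio. The modified fraction was deposited where coverage reached 11, and an identification score was deposited for every call. Coverage at the called bases, from 6 to 10725 over the 4 lists, is the depth behind each value, and depth elsewhere is unknown.

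The members and all lists and classes were chosen with earlier results of these data known. Sites were chained within a list while gaps were 10 bases or less. Sequences were merged from the deposited 41-base contexts, which were equal wherever they overlapped in 603 of 603 pairs. Runs of A were counted within the context. Coverage classes were 6 to 10, 11 to 14, 15 to 24, 25 to 99 and 100 or more. Gene spans and promoter windows came from RefSeq tables of GRCm38.p6, whose chromosome coordinates equal those of mm10, without exons. Intervals of shares are exact Clopper-Pearson ones at 95% and cover counting error only. No test between groups was made. Clusters planted on simulated lists were found in 200 of 200 cases for each list. The clusters named were the 5 with the most sites in each list, those with a base called in another list, the 5 genes with the most members, and Alkbh1, and those described were taken from these. An item that this rule took is not reported here. The genes with members in 2 or more lists and the counts by chromosome were added after their values were seen. Python 3.11.15, pandas 2.3.3, numpy 2.4.6, SciPy 1.17.1 and matplotlib 3.10.9 were used.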

Additional observations from a re-analysis of the deposited data

How the results depend on the processing

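No paired analysis was possible because each group has 1 list with its replicates joined, and for the same reason no replicate could be left out. Of 196 values recomputed under other settings, 128 moved by less than their spread. Values are given in the order KO L, WT L, KO S, WT S. With a distance of 5 bases the clustered share was 3.6%, 3.88%, 3.7% and 6.4%, and in WT S the opposite-strand share was 17% and the median IPD ratio 2.66. With a distance of 20 bases the clustered share was 7.58%, 7.91%, 8.13% and 12%. With neighbours on the same strand only it was 4.12%, 4.46%, 4.26% and 7.19%, and an opposite-strand share has no meaning there. At coverage of 11 or more it was 8.48%, 8.85%, 8.17% and 11.7%, with a median coverage of 18, 17 and 20 in KO L, WT L and KO S and a median IPD ratio of 2.42 in WT S. At coverage of 25 or more it was 25.2%, 21%, 17.9% and 20.2%, the median IPD ratio 2.20, 2.12, 2.0 and 2.07, the fraction 47.4%, 46.4%, 43.4% and 38.2%, and the coverage 33, 31, 30 and 32. WT S no longer had the highest share at that depth. With a score of 30 or more the clustered share was 4.25%, 5.92%, 4.91% and 5.97%, so the excess of WT S over KO S no longer exceeded the intervals, the opposite-strand share 40% in KO L, and the median IPD ratio 3.06, 2.79, 2.89 and 2.93, against 3.075, 3.14, 3.14 and 3.14 at other sites. The fraction was then 73.6%, 76.3%, 91.8% and 65.0%, and the coverage 26, 21.5, 23 and 26. With no region excluded the clustered share was 8.08%, 8.16%, 7.33% and 10.8%, the IPD ratio 2.23, 2.33, 2.46 and 2.31, against 2.60, 2.59, 2.67 and 2.59 at other sites, the fraction 38.7%, 45.4%, 50.9% and 49.1%, and the coverage 30.5, 20, 23 and 23. The cause of these shifts was not tested. Leaving out unplaced contigs, dense 100 kb windows or, as an alternative added after seeing the data, contexts like those of the excluded regions moved none of 20 values each beyond its spread.

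Coverage limits these results in 2 ways. Bases at coverage 10 or less have no modified fraction. The lists hold no uncalled base with its coverage, so the depth at uncalled neighbours is unknown. Whether the calls of a cluster came from the same molecules cannot be read from the lists.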

Other observations

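The clustered share varied among chromosomes when the 4 lists were added up. It was 11.4% on chromosome 9 (84 of 738 sites), 10.9% on chromosome 15 (65 of 594) and 10.1% on chromosome 17 (59 of 587), against 4.66% on chromosome 14 (31 of 665). A count of 0 occurred in lists of both genotypes, such as 0 of 79 sites on the X chromosome and 0 of 76 on chromosome 18 in KO L, 0 of 77 on the X chromosome in KO S, and 0 of 143 on chromosome 13 and 0 of 100 on chromosome 16 in WT L. On chromosome 9 KO L had 25 of 131, of which 7 lay in Gm33838, and WT L had 21 of 175, KO S 7 of 127 and WT S 31 of 305. No test was made over chromosomes, which were picked after their values were seen, and sites of a cluster are not independent.

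A modified fraction of 100% was given at 16.8% of the clustered sites with a fraction in KO L, 18.8% in WT L, 18.4% in KO S and 14.4% in WT S, against 18.3%, 20.6%, 22.7% and 20.9% of the other sites. A fraction of 0% stood beside a call at 2 of 107 clustered sites in KO L, 1 of 154 in WT L, 4 of 136 in KO S and 10 of 534 in WT S, against 17 of 1096, 28 of 1462, 19 of 1443 and 59 of 3897 other sites. In WT S, an AT step on the X chromosome at positions 28151278 and 28151279 was called on both strands with IPD ratios of 4.64 and 7.10 at coverage 33 on each, and with fractions of 0% and 99.8%.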
